A study of Mus musculus with 20 samples.

Results

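The Pparg locus was taken as the 250 kb window chr6:115250000-115500000 of mouse genome build mm9, and every peak of 19 deposited peak lists that lay wholly in it was a member. The window held 239 of the 284878 peaks of the series. They merged into 42 sites, where a site is a stretch of peaks that overlap by at least 1 bp. The cells were 3T3-L1, an established mouse preadipocyte line, which was held past confluence (day 0) and then given dexamethasone, a synthetic glucocorticoid, together with insulin, serum from fetal calves and 3-isobutyl-1-methylxanthine, an inhibitor of phosphodiesterases. From day 2 the medium held serum with insulin, and later serum alone. Open chromatin was mapped by DNase I hypersensitive site sequencing (DHS-seq) on day 0, at 2 hours, at 4 hours and on days 1, 2 and 6. Chromatin immunoprecipitation sequencing (ChIP-seq) covered C/EBPbeta on day 0, at 2 hours, at 4 hours and on day 2, C/EBPdelta at 4 hours and day 0, the glucocorticoid receptor GR, Stat5a and RXR at 4 hours, PPARgamma on day 6 and day 2, and the polymerase that transcribes protein-coding genes (RNA Pol II) at 4 hours and day 0. The series has 20 samples, and the remaining one, an input, was not used here. The labels call day 0 cells preadipocytes and day 6 cells mature adipocytes. Each time and antibody had 1 library and no replicate, so no difference was tested against replicate spread. The lists give positions only, with no score, height or read count and no expression values, so marker genes of the cells could not be read. A site is called open, bound or listed at a time where it held a peak of that list. A site outside a list is one where no peak was listed, which is not the same as a site that was closed or unbound.

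Pparg encodes PPARgamma, the nuclear receptor that drives fat cell differentiation and binds DNA as a partner of RXR. In the usual account of adipogenesis the hormonal inducers act first through C/EBPbeta and C/EBPdelta, related bZIP factors, and through GR, the receptor of dexamethasone. Stat5a is a signal-activated factor downstream of growth hormone and cytokine receptors. These factors lead to expression of Pparg, which has alternative promoters and whose product then maintains the adipocyte state together with C/EBPalpha. The RefSeq gene table (assembly GRCm38.p6) is of another build than the peaks, so no site was assigned to a promoter, exon or intron of Pparg.

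The sequences before the gene's starts are shown because the profiled factors bind DNA by sequence, and each start offers different letters. The RefSeq promoter table (GRCm38.p6) matched Pparg at 3 starts, and the 250 bases before each start are printed 5′ to 3′. Their positions are on GRCm38.p6 and cannot be compared with the mm9 peaks, so whether a peak covers them was not determined. Capitals mark matches, on either strand, to the C/EBP motif TTGCNNAA or to the nuclear receptor hexamer AGGTCA.
Pparg RefSeq start 1, chr6:115360894-115361143, plus strand: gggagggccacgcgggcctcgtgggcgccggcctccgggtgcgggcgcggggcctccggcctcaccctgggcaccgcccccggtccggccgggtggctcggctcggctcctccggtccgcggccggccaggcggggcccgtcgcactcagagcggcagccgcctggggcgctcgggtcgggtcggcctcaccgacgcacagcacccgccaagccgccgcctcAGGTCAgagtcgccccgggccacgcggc
Pparg RefSeq start 2, chr6:115362099-115362348, plus strand: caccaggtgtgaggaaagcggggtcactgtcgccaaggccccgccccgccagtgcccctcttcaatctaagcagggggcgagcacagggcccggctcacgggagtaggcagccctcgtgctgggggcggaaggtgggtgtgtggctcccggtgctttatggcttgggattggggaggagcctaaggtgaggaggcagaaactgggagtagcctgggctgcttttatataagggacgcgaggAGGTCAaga
Pparg RefSeq start 3, chr6:115421816-115422065, plus strand: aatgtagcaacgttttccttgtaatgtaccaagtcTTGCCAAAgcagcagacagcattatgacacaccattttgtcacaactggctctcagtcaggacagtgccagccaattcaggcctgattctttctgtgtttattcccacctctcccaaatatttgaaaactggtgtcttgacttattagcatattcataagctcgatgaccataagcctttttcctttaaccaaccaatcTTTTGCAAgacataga
The bases before the first start were 82.4% G or C, those before the second start 63.6% and those before the third start 40.8%. The third held 2 matches to TTGCNNAA and the other two none, and 9.56% of all 32851 RefSeq promoter windows of this length held at least 1. The first and the second each held 1 AGGTCA and the third none, against 14.0% of all windows with at least 1. No match to the palindromic glucocorticoid response element (in 0.387% of windows), to the STAT motif TTCNNNGAA (in 7.02%) or to DR1, a direct repeat of AGGTCA with 1 base between (in 0.0335%), was found in the 3 windows. A DR1 match would hold 2 AGGTCA matches, and the marked matches do not overlap each other.

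The window was among the most densely bound parts of the genome. The genome was cut into 10562 tiles of 250 kb, one of which is the window, and the 19 lists placed a median of 14 and a mean of 26.9 peaks in a tile, against 239 in the window. Of the 10561 other tiles, 3 held more, with up to 277 peaks. For the 5 factors profiled at 4 hours (GR, Stat5a, RXR and both C/EBPs) the window held 77 peaks, and no other tile held more than 61. The window led by itself in 2 lists: it held 26 C/EBPdelta peaks of 4 hours against at most 19 in any other tile, and 13 GR peaks against at most 10. It held 25 C/EBPbeta peaks of 4 hours, a number that 1 other tile reached and none passed, and 20 C/EBPbeta peaks of day 2, which 2 others reached and none passed. RNA Pol II was not dense in the window and held a middle rank, with 1 peak at 4 hours and 1 on day 0. At 4 hours 4840 other tiles held at least as many and 5721 held none. On day 0 these numbers were 5834 and 4727. These ranks describe the lists, and the window was chosen with this gene in view.

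**Figure D1:**
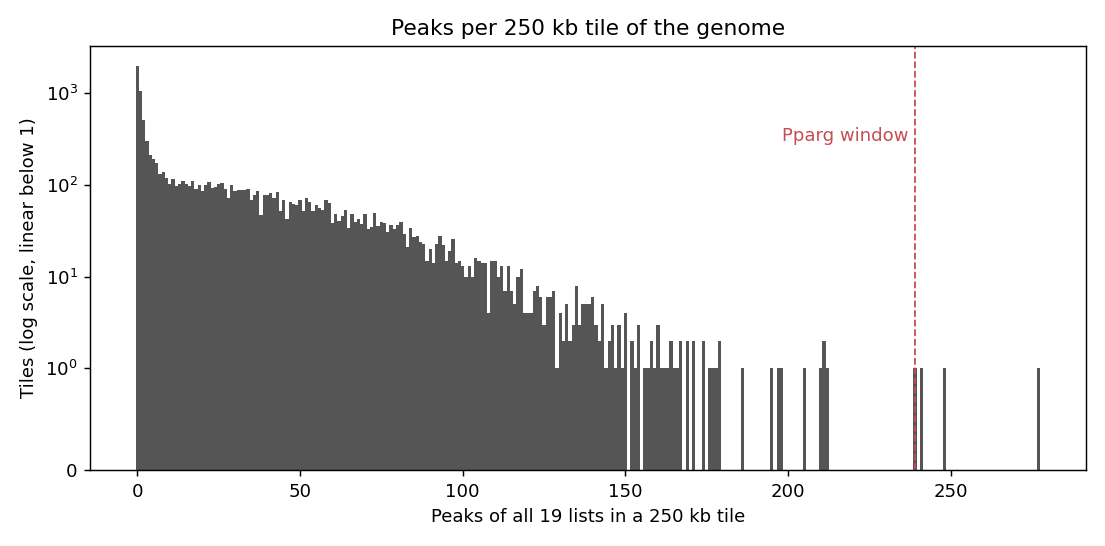
Number of 250 kb tiles of the genome (vertical axis, log scale, linear below 1) by the number of peaks of all 19 lists they hold (horizontal axis). The window around Pparg, at 239 peaks, is marked by the broken line, and 3 tiles lie to its right.

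The sites covered 12.5% of the window. Their width had a median of 644 bp and ran from 203 to 1863 bp, against a median of 601 bp over all 77867 sites of the genome merged in the same way. Sites are numbered 1 to 42 along the window, and the gaps between neighbours ran from 66 to 21784 bp with a median of 4483 bp. Of the 42 sites, 10 were in 1 list only (23.8%, exact 95% interval 12.1 to 39.5, which includes the 37.3% over the genome). Another 8 sites were in 10 or more lists (19%, against 5.84%), and these were sites 20, 22, 23, 27, 28, 37, 38 and 41. They stood in 3 stretches: sites 20, 22 and 23 at 111 to 124 kb from the start of the window, sites 27 and 28 at 152 and 163 kb, and sites 37, 38 and 41 at 219 to 241 kb. Genome shares here and below include the window's own 42 sites.

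**Figure D2:**
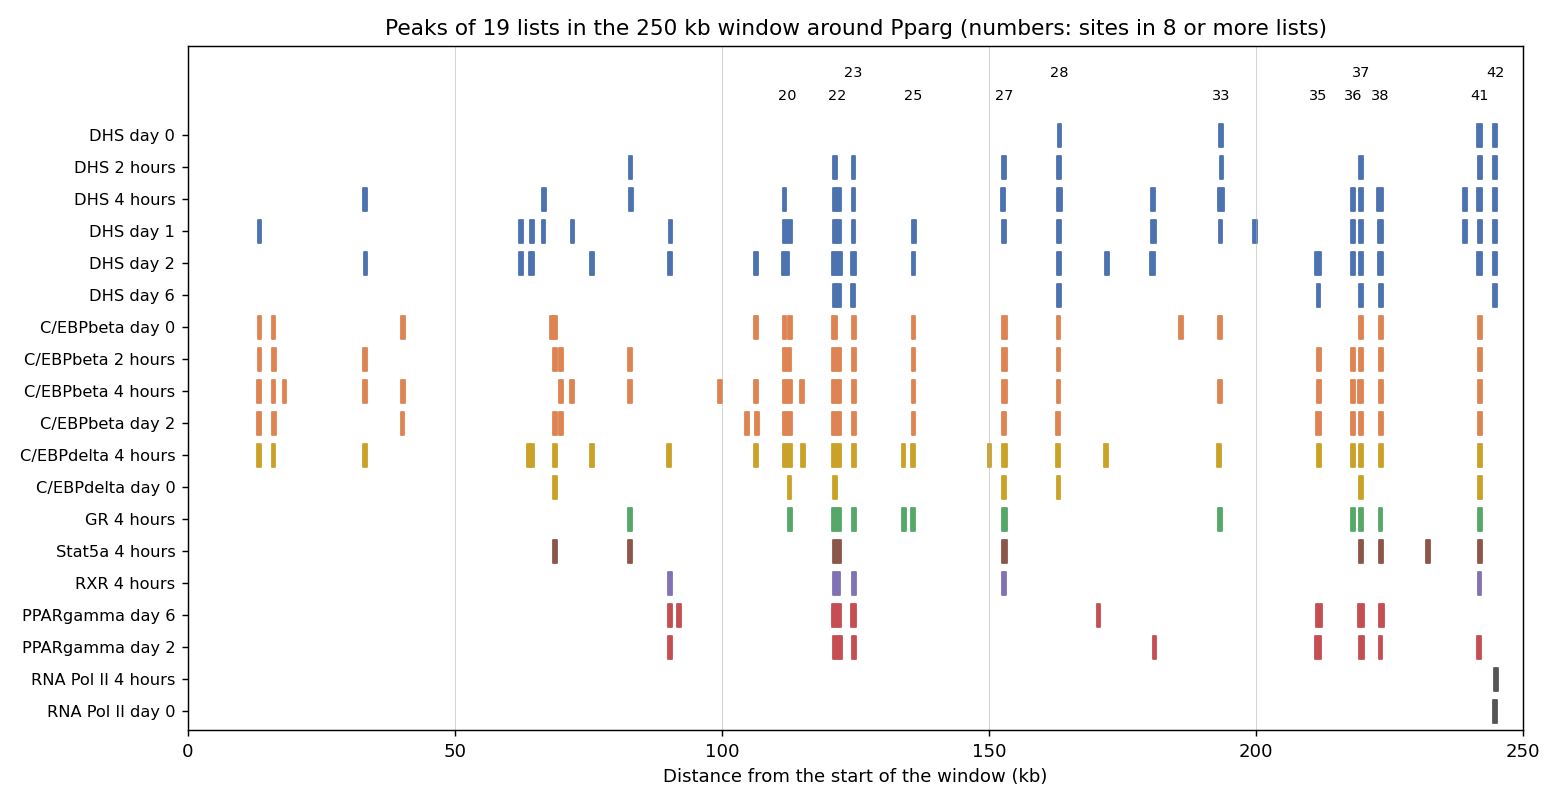
Each bar is 1 peak, placed by its distance in kb from the start of the window, with 1 row for each of the 19 lists; peaks narrower than 0.7 kb are drawn 0.7 kb wide. Numbers above mark the sites in 8 or more lists. Both RNA Pol II peaks sit at site 42, near the end of the window, and no other row is as sparse.

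The edges of the window fell between sites. The first member site lay 13087 bp inside and the last, site 42, 4815 bp inside. The nearest sites beyond the edges were 6838 bp before the window, in 4 lists, and 5484 bp after it, in 9 lists including GR and C/EBPdelta of 4 hours and day 0. No peak crossed an edge.

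Sites of the locus entered the DHS lists on day 0 and at each later time up to day 2. Of the 42 sites, 27 held a DHS peak at some time and 15 none (35.7%, genome 41.3%), and 4 of the 27 (sites 28, 33, 41 and 42) had one on day 0 (14.8%, exact 95% interval 4.19 to 33.7; 21.2% of the 45728 genome sites with DHS). The interval for day 0 includes the genome share, and 796 of the 10561 other tiles held at least as many day 0 peaks as the window's 4. A further 5 sites, 14, 22, 23, 27 and 37, were first listed at 2 hours (18.5%, 6.30 to 38.1; genome 7.74%). Another 7 were first listed at 4 hours (sites 4, 8, 20, 31, 36, 38 and 40; genome 40.0%) and 7 on day 1 (sites 1, 6, 7, 12, 15, 25 and 34; genome 21.0%). Day 2 added 4 sites, 13, 19, 30 and 35 (genome 9.03%). No site was first listed on day 6 (0 of 27, which allows up to 12.8% by the exact 95% interval; genome 0.995%). The interval for 2 hours reaches below the genome share, so at 27 sites the surplus at 2 hours was not separable from counting error. Such intervals cover counting over sites only, and neighbouring sites are not independent.

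The number of DHS peaks in the window was 4 on day 0, 9 at 2 hours, 17 at 4 hours, 23 on day 1, 19 on day 2 and 8 on day 6. The whole lists held 9989, 9055, 31751, 35389, 25097 and 11936 peaks in the same order. The step between day 0 and 2 hours is therefore the only one in which the window gained peaks while the list did not grow. All 4 sites of day 0 were listed again at 2 hours, against 54.4% of the 9712 day 0 sites of the genome. With 4 sites the exact 95% interval, 39.8 to 100, includes that genome share. Of the 27 open sites, 9 were listed at 2 hours (33.3%, 16.5 to 54.0; genome 19.3%), 16 at 4 hours (59.3%, genome 67.2%) and 21 on day 1 (77.8%, genome 74.0%). Day 2 held 19 of the 27 open sites (70.4%, 49.8 to 86.2, which includes the 52.7% over the genome). Day 6 held 7, sites 22, 23, 28, 35, 37, 38 and 42 (25.9%, 25.0% over the genome). Of the 12 sites listed at 4 hours and not on day 0 (44.4% of the open sites, genome 47.2%), 10 were listed on day 1 (genome 68.9%), 8 on day 2 (41.7%) and 4 on day 6 (14.4%). These 4 were sites 22, 23, 37 and 38. The exact 95% intervals for the 12 sites, 51.6 to 97.9 on day 1, 34.9 to 90.1 on day 2 and 9.92 to 65.1 on day 6, include the genome shares.

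Sites 28 and 42 were open at all 6 times, and no ChIP-seq list held both. Site 28 (chr6:115412654-115413556) held C/EBPbeta at all 4 of its times and C/EBPdelta at 4 hours and day 0, with no GR, Stat5a, RXR, PPARgamma or RNA Pol II peak. Its DHS peaks were 652, 680, 828, 712, 809 and 499 bp wide from day 0 to day 6. The middle of its C/EBPbeta peak of 4 hours lay 165 bp before the middle of its DHS peak of 4 hours. Site 42 (chr6:115494357-115495185) held both RNA Pol II peaks and no factor at any time. Over all 6 times, 7.41% of the window's open sites stayed listed, against 8.95% over the genome.

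Site 33 (chr6:115442805-115443925) was open early and then lost from the lists. It held DHS on day 0, at 2 hours, at 4 hours and on day 1, in peaks of 761, 331, 1111 and 606 bp, and none on days 2 and 6. C/EBPbeta was listed there on day 0 and at 4 hours and not at 2 hours or on day 2, and C/EBPdelta and GR were listed at 4 hours. Site 14 (chr6:115332476-115333211) had the shortest course of the 5 sites first listed at 2 hours. It held DHS and C/EBPbeta at 2 hours and 4 hours only, together with GR and Stat5a at 4 hours, and no C/EBPdelta.

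At 4 hours 31 of the 42 sites held at least 1 of the 5 factors, and several factors sat on the same sites. The counts were 10 sites with 1 factor (genome 52.1%), 10 with 2 (32.0%), 5 with 3 (8.78%), 3 with 4 (4.43%) and 3 with all 5 (2.70%). Sites with 3 or more made up 11 of the 31 (35.5%, exact 95% interval 19.2 to 54.6), against 15.9% of the 34800 genome sites with a factor. C/EBPdelta lay at 24 sites, C/EBPbeta at 23, GR at 12, Stat5a at 8 and RXR at 5. As shares of the sites with a factor, these were 77.4%, 74.2%, 38.7%, 25.8% and 16.1% in the window and 51.5%, 84.7%, 11.6%, 19.9% and 5.89% over the genome. GR, which dexamethasone activates, was at 11 of the 23 C/EBPbeta sites (47.8%, 26.8 to 69.4), against 12.6% over the genome. C/EBPdelta was at 17 of those 23 (73.9%, 51.6 to 89.8), against 51.1%.

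**Figure D3:**
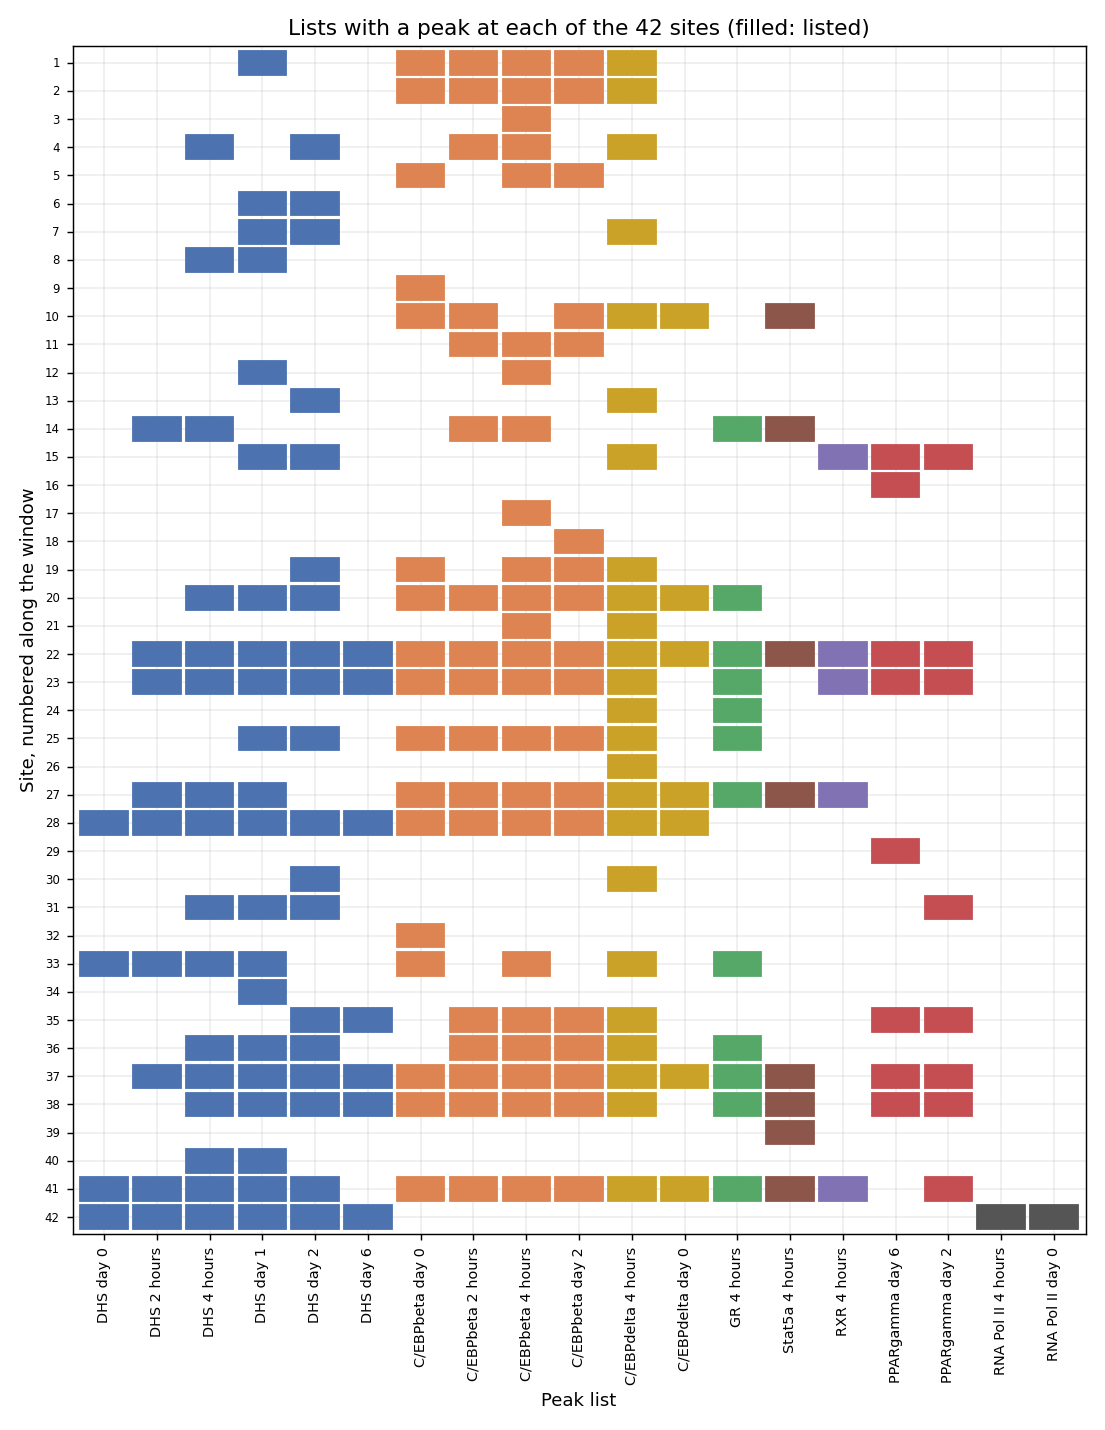
Rows are the 42 sites in their order along the window and columns the 19 peak lists; a filled cell means that the site holds a peak of that list. Sites 22, 37 and 41 fill 16, 15 and 15 columns, and 10 sites fill 1.

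C/EBPdelta was also listed without C/EBPbeta. At 7 of its 24 sites C/EBPbeta was not listed at 4 hours (29.2%, exact 95% interval 12.6 to 51.1, which includes the genome share of 16%). At 6 of these 7, sites 7, 13, 15, 24, 26 and 30, C/EBPbeta was not listed at any time. The exception, site 10 (chr6:115318481-115319003), held C/EBPbeta on day 0, at 2 hours and on day 2, C/EBPdelta at 4 hours and day 0, and Stat5a at 4 hours, with no DHS peak at any time. C/EBPdelta had 26 peaks in the window at 4 hours and 7 on day 0, in lists of 18327 and 2581 peaks. Its 7 day 0 sites, 10, 20, 22, 27, 28, 37 and 41, were all listed again at 4 hours (59.0 to 100, which includes the genome share of 80.9%).

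Sites with several factors were more often in the early DHS lists than sites with few, in the window and over the genome. Of the 11 sites with 3 or more factors, 7 held DHS at 2 hours (63.6%, 30.8 to 89.1, genome 41.7%). At 4 hours 10 of them held it (90.9%, 58.7 to 99.8, genome 71.4%). Both intervals include the genome share. Of the 20 sites with 1 or 2 factors, 1 held DHS at 2 hours (genome 11.1%) and 2 held it at 4 hours (genome 35.9%). The exception among the 11 was site 25 (chr6:115385474-115386172), with both C/EBPs and GR at 4 hours and DHS on days 1 and 2 only. Site 20 was counted among the 10 with DHS at 4 hours, but its DHS peak of 4 hours and its GR peak did not overlap. Sites with 3 or more factors were also wider, with a median of 1005 bp against 580 bp for sites with 1 or 2, and the part of width in these counts was not tested. C/EBPbeta had already been listed on day 0 at 9 of the 11, all but sites 14 and 36. This was 81.8% (48.2 to 97.7), and the interval includes the genome share of 63.2%.

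The middles of the factor peaks lay close together. At the 9 sites with 3 or more factors and 1 peak for each, the middles spanned 18 to 145 bp with a median of 45 bp, against a median of 94 bp at 5176 such genome sites. Site 36 had the tightest group (18 bp) and site 41 the loosest (145 bp). C/EBPbeta and DHS middles of 4 hours lay 3.5 to 213 bp apart at 10 sites. The median was 116 bp, against 62 bp over 12730 genome sites. This pairwise distance, at a partly different set of sites, is not comparable with the span over 3 or more factors. The largest distance was at site 27.

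The 3 sites with all 5 factors were 22, 27 and 41, and their later peaks differed. Site 22 (chr6:115370560-115372422) was in 16 of the 19 lists, a number that 0.177% of the genome's sites reach. It lacked DHS of day 0 and both RNA Pol II lists. Site 27 (chr6:115402355-115403359) held DHS at 2 hours, at 4 hours and on day 1 and then none, and it held no PPARgamma. Its C/EBPbeta peaks were among the widest of their lists at each time, at 982, 932, 996 and 799 bp from day 0 to day 2, wider than 97.1%, 97.3%, 96.3% and 95.5% of each list. Site 41 (chr6:115491409-115492323) was open from day 0 to day 2 and not listed on day 6. PPARgamma was not listed at site 41 on day 6, and its peak there on day 2 was 419 bp wide, narrower than nearly all of that list (0.821% were narrower).

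Site 22 held a pair of adjoining elements that some lists gave as separate peaks and others as 1. DHS had 2 peaks at 4 hours, of 572 and 613 bp, 2 on day 1, of 591 and 586 bp, and 2 on day 6, of 390 and 578 bp, where day 2 had 1 peak of 1828 bp across both. At 2 hours the DHS peak of 746 bp covered the first element only. C/EBPbeta of day 0 (879 bp) and C/EBPdelta of day 0 (492 bp) also lay on the first element. C/EBPbeta had 1 peak across both at 2 hours (1579 bp). At 4 hours it had a peak on each element (814 and 772 bp), as did GR (773 and 789 bp). The other factors had 1 peak across both: C/EBPdelta of 1620 bp, Stat5a of 1581 bp and RXR of 1373 bp. That RXR peak was the widest of the 2076 in its list, 3 Stat5a peaks of 6977 were wider than the one here, and 7 C/EBPdelta peaks of 18327. PPARgamma had 2 peaks on day 6 (787 and 858 bp) and 1 peak across both on day 2 (1693 bp).

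Site 23 (chr6:115374144-115375092) followed 1721 bp further on and was in 14 lists. It held DHS at 2 hours and at every later time, in peaks of 449, 555, 589, 846 and 529 bp, and C/EBPbeta at all 4 times. At 4 hours it held C/EBPdelta, GR and RXR and no Stat5a. Sites 22 and 23 were therefore in the same lists except C/EBPdelta of day 0 and Stat5a of 4 hours.

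**Figure D4:**
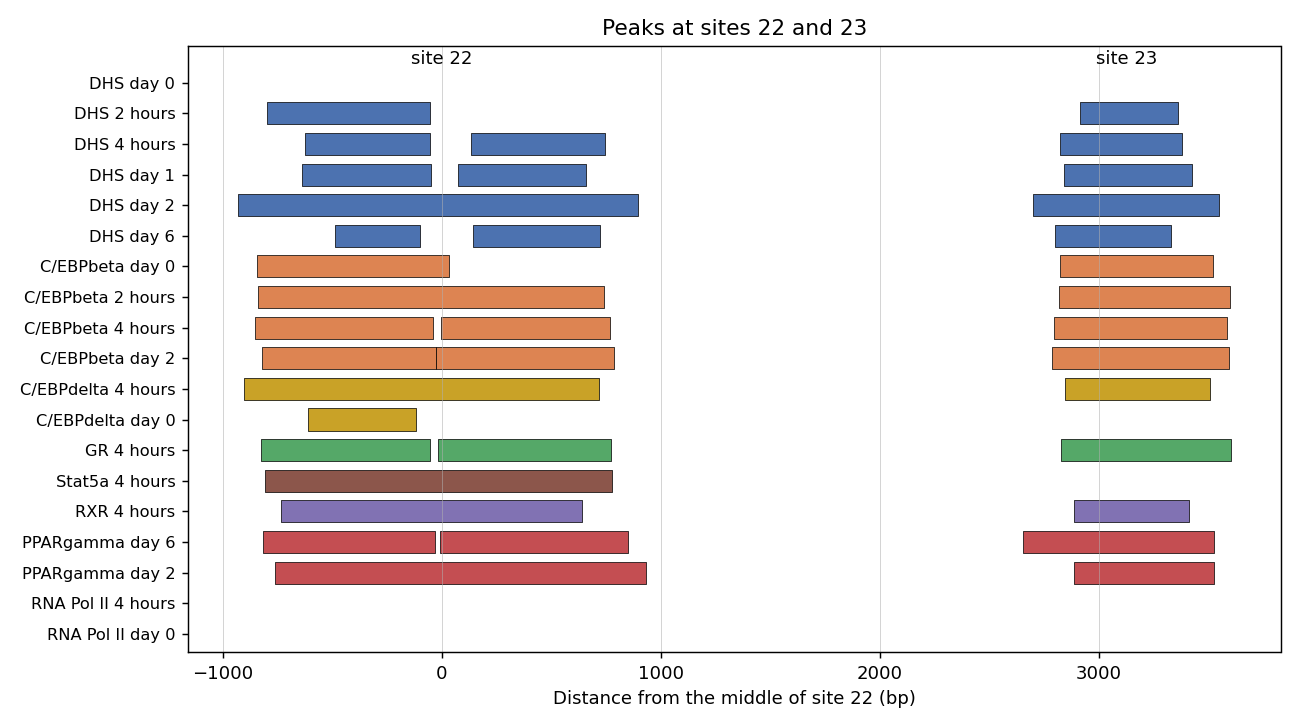
Peaks of each list at sites 22 and 23, by distance in bp from the middle of site 22; each bar is 1 peak, drawn to scale. DHS of 2 hours, C/EBPbeta of day 0 and C/EBPdelta of day 0 lie on the first element of site 22, and both elements are covered in each of the other lists with a peak there.

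C/EBPbeta lay at 27 of the 42 sites at some time (64.3%, exact 95% interval 48.0 to 78.4, which includes the genome share of 52.4%). Its lists held 18 peaks of the window on day 0, 18 at 2 hours, 25 at 4 hours and 20 on day 2. Of the 27 sites, 11 were listed at all 4 times (40.7%, 22.4 to 61.2; genome 22.8%), 6 at 3 times (genome 16.7%), 3 at 2 times (19.3%) and 7 at 1 time (41.2%). The 11 were sites 1, 2, 20, 22, 23, 25, 27, 28, 37, 38 and 41. Of these, 10 held a DHS peak at some time (genome 77.5%), and site 2 (chr6:115265684-115266394) held none although C/EBPdelta was there too. Of the 23 sites bound at 4 hours, 9 were not listed on day 0 (39.1%, genome 50%), and 3 of those 9, sites 11, 35 and 36, were still listed on day 2 (genome 35.5%). Of the 17 sites bound on day 0, 14 were listed at 4 hours, and sites 9, 10 and 32 were not (17.6%, genome 27.0%).

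Most C/EBPbeta sites of day 0 were not in the DHS list of that day. On day 0, 3 of its 17 sites, 28, 33 and 41, were in the DHS list of that day (17.6%, genome 16.5%). Of the other 14, 6 were in the DHS list at 4 hours: sites 20, 22, 23, 27, 37 and 38 (42.9%, genome 37.3%). Both shares were near those of the genome. The day 0 DHS list was shorter than the C/EBPbeta list (9989 against 20471 peaks), so absence from it does not show a closed site.

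Site 20 (chr6:115361301-115363009), in 10 lists, also held a pair of elements. C/EBPbeta had a peak on each at every time, the first of 659, 681, 720 and 694 bp and the second of 587, 662, 596 and 679 bp from day 0 to day 2. GR at 4 hours (520 bp) and C/EBPdelta of day 0 (377 bp) lay on the second element alone. DHS at 4 hours lay on the first element alone (439 bp), and the second had a DHS peak on day 1 (217 bp). The DHS peak of day 2 (1163 bp) covered the first element and the edge of the second. C/EBPdelta of 4 hours had a peak on each (543 and 618 bp). At the second element, GR, C/EBPbeta and C/EBPdelta were thus listed at 4 hours with no DHS peak of that time.

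The GR-bound sites 24 and 36 differed in company. Site 36 (chr6:115467733-115468503) held both C/EBPs with GR at 4 hours and DHS at 4 hours, day 1 and day 2. Site 24 (chr6:115383729-115384251) held C/EBPdelta and GR at 4 hours and nothing else, and was the only GR site of the window without C/EBPbeta. Its GR peak of 442 bp was among the narrowest of its list. Stat5a was alone at site 39 (chr6:115481905-115482421), in a peak of 517 bp.

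PPARgamma was listed in the window of its own gene on both days. It had 9 peaks at 8 sites on day 6 and 8 peaks at 8 sites on day 2. Over all sites this was 19% on day 6, against 7.00% over the genome, and 19% on day 2, against 4.03% (exact 95% interval 8.60 to 34.1 on each day). Sites 15, 22, 23, 35, 37 and 38 were listed on both days, sites 16 and 29 on day 6 only, and sites 31 and 41 on day 2 only. Of the 8 day 2 sites, 6 were listed again on day 6 (75.0%, genome 67.1%).

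Sites with PPARgamma held a factor at 4 hours about as often as the window's sites as a whole, of which 31 of 42 did (73.8%, genome 44.7%). A factor had been at 6 of the 8 day 6 sites (75.0%, genome 41.2%) and at 7 of the 8 day 2 sites (87.5%, genome 55.5%). Sites with 3 or more, 11 of the window's 42, made up 4 of the 8 day 6 sites (genome 13.0%) and 5 of the 8 day 2 sites (genome 22.8%). With 8 sites a day the intervals are wide. For any factor the exact 95% intervals were 34.9 to 96.8 (6 of 8) and 47.3 to 99.7 (7 of 8). These include the genome shares of 41.2% and 55.5%. For 3 or more factors they were 15.7 to 84.3 on day 6 and 24.5 to 91.5 on day 2. Their lower ends lay little above the genome shares. C/EBPdelta was the most frequent of the 5, at 6 of the 8 day 6 sites (genome 27.3%) and 7 of the day 2 sites (genome 40.2%). C/EBPbeta of 4 hours was close behind, at 5 (genome 39.3%) and 6 (genome 53.1%). The exact 95% intervals for C/EBPbeta, 24.5 to 91.5 and 34.9 to 96.8, include these shares. Over the genome the order was the reverse, with C/EBPbeta at more PPARgamma sites than C/EBPdelta on both days. Over all 42 sites of the window C/EBPdelta was already the most frequent, at 24 (57.1%), and RXR was at 5 (11.9%). RXR, the partner of PPARgamma, had been at 3 of the day 6 sites (genome 7.83%) and 4 of the day 2 sites (genome 14.7%). All 8 day 2 sites held DHS on day 2 (genome 74.4%). On day 6, 5 of the 8 held DHS (genome 32.1%), and these 5 were among the 7 sites of the window open on that day (71.4%, genome 15.3%). None of the day 6 sites had been in the day 0 DHS list (0 of 8, which allows up to 36.9% by the exact 95% interval; genome 12.5%).

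Sites 37 and 38 shared 13 lists. Site 37 (chr6:115469077-115470266) was in 15 lists and site 38 (chr6:115472604-115473875), 2337 bp further on, in 13. Both held C/EBPbeta at all 4 times, C/EBPdelta, GR and Stat5a at 4 hours, PPARgamma on both days and DHS from 4 hours to day 6. Site 37 in addition held DHS at 2 hours and C/EBPdelta of day 0. The PPARgamma peak at site 37 was 1113 bp wide on day 6 and 1028 bp on day 2, and that at site 38 was 896 bp on day 6 and 552 bp on day 2. Neither held RXR at 4 hours.

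Other PPARgamma sites had a later or thinner history. Site 35 (chr6:115461024-115462246) was first open on day 2 and stayed listed on day 6, and was the only site first open that late to be so. It held C/EBPbeta from 2 hours on, C/EBPdelta at 4 hours, and PPARgamma peaks of 1072 bp on day 6 and 1154 bp on day 2. Site 15 (chr6:115339838-115340559) held RXR and C/EBPdelta at 4 hours with no C/EBPbeta at any time. It was open on days 1 and 2 in peaks of 263 and 264 bp, near the narrow end of those lists, and held PPARgamma in peaks of 707 bp on day 6 and 715 bp on day 2. Site 31 (chr6:115430148-115431230) held PPARgamma on day 2 and DHS from 4 hours to day 2, with no other factor. Sites 16 (chr6:115341571-115342234) and 29 (chr6:115420240-115420766) held PPARgamma of day 6 and no other peak.

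RNA Pol II was listed at 1 of the 42 sites, both at 4 hours and on day 0. The genome shares were 14.8% at 4 hours and 17.5% on day 0, against 2.38% in the window at each time (exact 95% interval 0.0603 to 12.6). The window share has as its base the 42 sites of all lists, in a window dense in other peaks. Counted per 250 kb tile, the window's 1 peak was near the genome mean of 1.19 at 4 hours and 1.40 on day 0. The low share therefore does not show a lack of RNA Pol II peaks for a stretch of this length. The site was 42, and its RNA Pol II peak was 583 bp wide at 4 hours and 251 bp on day 0. The day 0 width is the narrowest in its list and is shared by many peaks, since 13286 of the 14784 were wider. The 11 sites with 3 or more factors at 4 hours held no RNA Pol II peak at either time (0 of 11, which allows up to 28.5% by the exact 95% interval). The genome shares for such sites were 5.59% at 4 hours and 4.83% on day 0, so a count of 0 is near the background. RNA Pol II was profiled at these 2 times only, so its state on the days on which PPARgamma was mapped was not measured. Which gene site 42 belongs to was not determined.

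**Figure D5:**
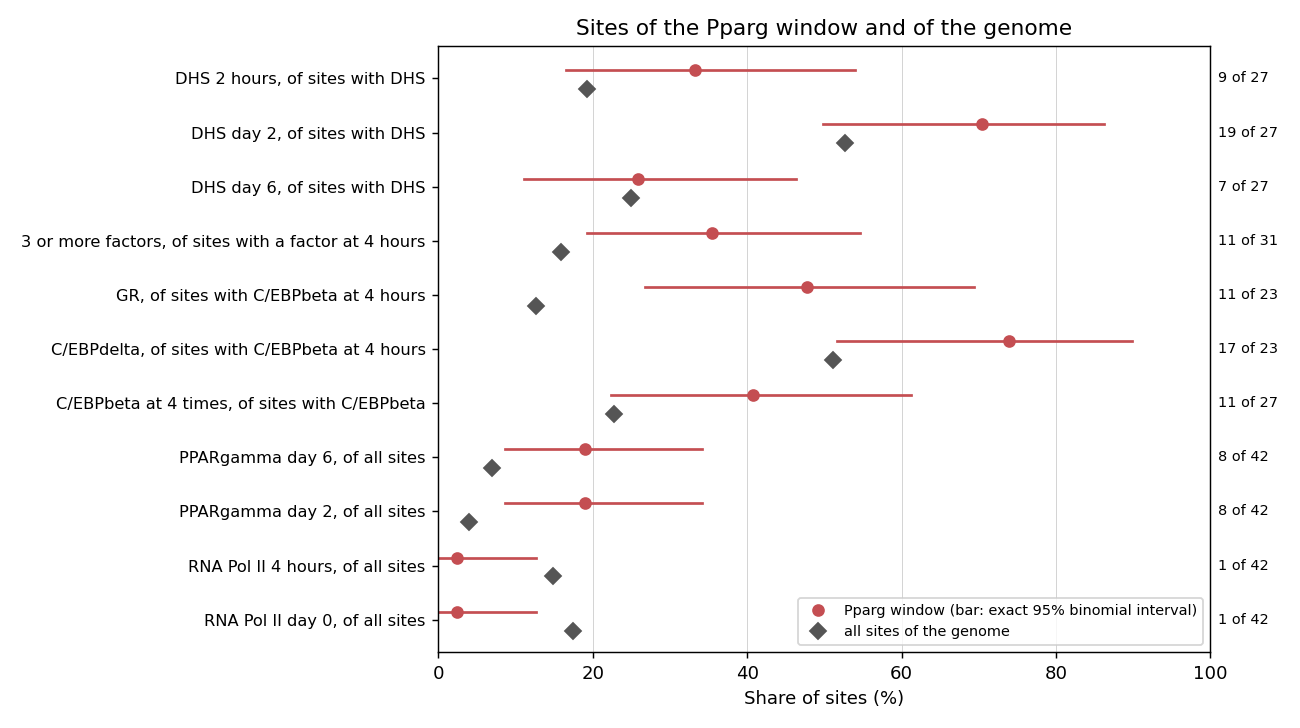
Share of sites in percent, with the window around Pparg (circles, with exact 95% binomial intervals and the counts at the right) above all sites of the genome (diamonds). GR at C/EBPbeta sites stands at 47.8% in the window and 12.6% over the genome, whereas DHS of day 6 stands at 25.9% and 25.0%.

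Most of the remaining sites were in few lists, but site 1 was in 6 and sites 4 and 19 were in 5. Sites 1, 4, 6, 7, 8, 12, 13, 19, 30, 34 and 40 held DHS at 1 or 2 times, alone or with C/EBPbeta, C/EBPdelta or both. Without DHS, sites 3 and 17 held C/EBPbeta of 4 hours, site 18 that of day 2, sites 9 and 32 that of day 0, and sites 5 and 11 C/EBPbeta at 3 times. Site 21 held C/EBPbeta and C/EBPdelta of 4 hours, and site 26 held C/EBPdelta of 4 hours alone. The 15 sites with no DHS at any time were in a median of 1 list, against 6 lists for the 27 sites with DHS, and were narrower, with a median of 527 against 784 bp.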

How the data were processed

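Per the labels' protocols, chromatin from 3T3-L1 cells was immunoprecipitated, or nuclei were cut lightly with DNase I and short fragments isolated, and the DNA was sequenced on Illumina instruments. The authors deposited 1 peak list per sample with start and end in base pairs and no other measurement. The build is mm9, per the submitters' processing notes. Aligner, peak caller and thresholds are not given in the sources used here, and the depth per sample is unknown. An input sample was not used here.

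Peaks wholly inside the window were kept and merged across the 19 lists at an overlap of at least 1 bp. The same merging over the genome gave 77867 sites as background. Shares carry Clopper-Pearson (exact) 95% intervals, which cover counting error only. No significance test was run, as each group held 1 library. Tiles of 250 kb ran from the first base of each autosome and the X chromosome; peaks across a tile edge were left out. Sites described singly were the 10 in most lists and every site with PPARgamma, RNA Pol II, GR, Stat5a or RXR; others are named only to fill a count, after their values were seen. The window and these choices were made with earlier results of these data known. Merging was tested on simulated data with well separated sites, which cannot test how closely spaced or adjoining elements are joined. Promoter sequences are from RefSeq (GRCm38.p6). Computation used SciPy 1.17.1 with NumPy 2.4.6 in Python 3.11.15, and figures were drawn with Matplotlib 3.10.9.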

Additional observations from a re-analysis of the deposited data

How the results depend on the processing

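Of 126 alternative values for 17 results, 96 stayed within 1.5 times the reported count and 30 did not. None moved beyond it when peaks had to share 50% of the shorter one or with every peak set to 200 bp. None moved with RNA Pol II left out of the merging or with peaks across the window edge counted, but these settings could not change a count. No peak crossed an edge, and both RNA Pol II peaks lay at site 42, which its DHS peaks form without them. Their values among the 96 are thus no test of the counts. A gap of up to 500 bp left 1 site with C/EBPbeta on day 0 and not at 4 hours, in place of 3. With the wider 50% of each list, which removes peaks, there were 150 peaks, 25 sites, 10 sites open by 4 hours, 5 first open on day 1 or later, 5 with 3 or more factors, 5 with C/EBPbeta at 4 hours and not on day 0, 5 with PPARgamma on day 6, 3 with PPARgamma on day 2, and 0 with RNA Pol II on day 0. Equal list length by width was set within each group of lists compared, so the counts come from different selections. The widest 2076 peaks of each of the 19 lists left 59 peaks and 11 sites, and those of the 5 factors left 6 sites with any factor, 4 with 3 or more and 1 with all 5. The widest 9055 of each DHS list left 4 sites first open on day 1 or later, with 4 open on day 0 as reported. The widest 19703 of each C/EBPbeta list left 11 sites bound at 4 times, as reported. The widest 3168 of each PPARgamma list left 5 sites on day 6, and the widest 12558 of each RNA Pol II list left 0 on day 0. A window narrowed by 50 kb at each side held 149 peaks, 9 sites open by 4 hours, 2 open on day 0, 3 on day 6, 20 with any factor, 7 with 3 or more, 5 with C/EBPbeta at 4 hours and not on day 0, 6 with it at 4 times, 5 with PPARgamma on day 6, 4 with it on day 2, and 0 with RNA Pol II at either time, since sites 1 to 5 and 35 to 42 lie outside it. Tiles shifted by 125 kb, chosen after seeing the data, also left no other tile with as many peaks of the 5 factors (at most 63, against 77). No paired analysis was possible because each group held 1 library. The lists give no score and depth is unknown, so width stood in for strength.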
